A study of Mus musculus with 2 samples.

Results

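Transcripts of 9 genes were measured, and 9 of 9 were found in the count tables of both libraries: the inflammatory cytokines Il1b, Il1a and Tnf, the anti-inflammatory cytokine Il10, and the CXC chemokine ligands Cxcl1, Cxcl2, Cxcl10, Cxcl16 and Pf4. They were chosen by name, as 9 of the 21115 genes with at least 1 transcript in the cells analysed. The cells were macrophages of the sciatic nerve, sorted as CD64+ CD45int from male mice aged 10 to 12 weeks, with the nerves of 19 mice pooled. All mice carried Flt3-Cre and LSL-YFP fl/fl, a reporter in which Cre driven by Flt3, a gene of haematopoietic progenitors, leaves cells of that descent and their progeny YFP+, while YFP- macrophages were taken by the study as embryonic in origin. After sorting and sequencing, 1045 YFP- and 4053 YFP+ cells were analysed, a cell being a barcode with at least 500 UMIs (unique molecular identifiers, 1 per captured transcript) and 200 genes.

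These genes fall into 2 kinds by what is known of them. Il1b, Il1a, Tnf, Cxcl1, Cxcl2 and Cxcl10 encode proteins that macrophages make after a stimulus: NF-kB and AP-1 factors drive most of them, and interferon signalling drives Cxcl10. IL-1 and TNF act on receptors of many tissue cells, CXCL1 and CXCL2 recruit neutrophils through CXCR2, and CXCL10 recruits T cells through CXCR3. Cxcl16, a membrane-bound chemokine and scavenger receptor that binds CXCR6, and Pf4, the platelet factor that many resident macrophages also transcribe, are usually made without such a stimulus. In the injured nerve these factors take part in the recruitment of leukocytes, whereas the nerves here were not injured.

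Pf4, Cxcl1 and Cxcl2 lie in 1 stretch of chromosome 5. In build GRCm38 Pf4 (ENSMUSG00000029373) spans chr5:90772435-90773383, Cxcl1 (ENSMUSG00000029380) chr5:90891241-90893115 and Cxcl2 (ENSMUSG00000058427) chr5:90903871-90905938, all on the plus strand. Only 10.8 kb separated Cxcl1 from Cxcl2, and 118 kb separated Pf4 from Cxcl1. Cxcl10 (ENSMUSG00000034855), at chr5:92346638-92348889 on the minus strand, lay 1441 kb beyond Cxcl2. Il1b (ENSMUSG00000027398, chr2:129364570-129371139) and Il1a (ENSMUSG00000027399, chr2:129299610-129309972) were neighbours on the minus strand of chromosome 2 with 54.6 kb between them. Tnf (ENSMUSG00000024401) was at chr17:35199381-35202007, Cxcl16 (ENSMUSG00000018920) at chr11:70453983-70459984 and Il10 (ENSMUSG00000016529) at chr1:131019845-131024974.

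RefSeq promoter windows in build GRCm38.p6 were at hand for 7 of the 9 genes, not for Il10 and Cxcl16. The 120 bases before the start are shown for 6 of them, to set promoters of 5 inducible genes beside that of Pf4. Capitals mark a match to any searched motif, and the last base printed is position -1. Positions count from the RefSeq start. For Cxcl1 and Cxcl2 it lies downstream of the gene start given above, by different lengths, so the last bases printed fall inside those spans. The windows are chr5:90891125-90891244, plus strand for Cxcl1, chr5:90903779-90903898, plus strand for Cxcl2, chr17:35202008-35202127, minus strand for Tnf, chr2:129371140-129371259, minus strand for Il1b, chr5:92348890-92349009, minus strand for Cxcl10 and chr5:90772315-90772434, plus strand for Pf4.
Cxcl1: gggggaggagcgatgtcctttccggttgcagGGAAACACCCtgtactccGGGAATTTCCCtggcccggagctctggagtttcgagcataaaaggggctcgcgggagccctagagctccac
Cxcl2: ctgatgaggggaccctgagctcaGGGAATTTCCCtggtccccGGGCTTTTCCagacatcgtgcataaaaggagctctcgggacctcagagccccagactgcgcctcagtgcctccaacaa
Tnf: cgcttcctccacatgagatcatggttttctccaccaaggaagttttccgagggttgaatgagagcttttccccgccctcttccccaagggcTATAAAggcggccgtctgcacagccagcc
Il1b: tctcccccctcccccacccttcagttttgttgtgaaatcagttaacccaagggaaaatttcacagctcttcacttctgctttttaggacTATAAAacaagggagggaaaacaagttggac
Cxcl10: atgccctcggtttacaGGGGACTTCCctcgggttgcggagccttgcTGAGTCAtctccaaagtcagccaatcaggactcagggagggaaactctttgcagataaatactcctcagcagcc
Pf4: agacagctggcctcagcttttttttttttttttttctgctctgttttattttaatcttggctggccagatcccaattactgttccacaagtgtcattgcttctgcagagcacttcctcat

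An NF-kB motif was searched in 2 forms, GGG then any 3 bases then TTCC, and GGG then any 2 bases then TTTCC, on either strand and with overlaps allowed, in the 250 bases before the start. Cxcl1 held the letters GGGAATTTCC at positions -71 to -62 and Cxcl2 held the same letters at -97 to -88, with a second match at -89 to -80 in Cxcl1 and at -78 to -69 in Cxcl2. Cxcl10 had 2 matches to the first form, at -159 to -150 and at -104 to -95. Thus 3 of 7 windows matched the first form, against 4.65% of 32851 RefSeq windows of the same length, and Cxcl1 and Cxcl2 also matched the second, found in 1.41% of windows. The AP-1 motif TGANTCA, on either strand, in 6.75% of all windows, matched in Cxcl10 at -74 to -68 and in Il1a at -12 to -6. An interferon motif, GAAA then any 2 bases then GAAA on either strand, was in 2.98% of windows and matched only in Cxcl10 among the 7, at -213 to -204, upstream of the part shown. TATAAA on the gene's own strand, in 7.59% of windows, was found in Il1b, Il1a and Tnf. Pf4 matched none of these letters in its window. A match describes the letters, not binding.

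Levels are given as CPM, a gene's UMIs per 1000000 UMIs of the cells of 1 library. They are not scaled by gene length, because the assay tags the 3′ end of each transcript. Each condition was 1 library, so no test between YFP- and YFP+ macrophages was possible, and the 95% intervals below, exact Poisson for levels and exact binomial for shares, cover counting error only. Those for levels and ratios treat UMIs as independent and do not cover the spread between cells. The detection limit was set at 3 UMIs. That is 1.24 CPM at the 2418044 UMIs of the YFP- library's cells and 0.445 CPM at the 6747554 UMIs of the YFP+ cells. The libraries shared 7 cell barcodes. The YFP- cells were deeper, with a median of 2233 UMIs against 1484. The summed level of 7 macrophage markers was 13609 CPM for YFP- and 13850 CPM for YFP+ cells, and 7 neutrophil markers summed to 17.8 and 13.04 CPM. Of these Csf3r made up most, at 16.5 and 11.7 CPM, while S100a8, S100a9, Ly6g, Mmp8 and Retnlg were at 0 in both.

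Il1b, which encodes the secreted cytokine IL-1 beta, was higher in the YFP+ library. It was counted 9 times in YFP- cells, at 3.72 CPM (1.70 to 7.07), and 137 times in YFP+ cells, at 20.3 CPM (17.1 to 24.0). The intervals did not overlap, and the log2 ratio of YFP+ over YFP- was 2.17 (1.36 to 3.01) after adding 1 CPM to each. Of the 6 genes with a mean of at least 5 CPM, namely Il1b, Tnf, Cxcl1, Cxcl2, Cxcl16 and Pf4, Il1b alone was 1.5-fold or more higher in YFP+ cells, as were 3.38% of 10065 genes at that level, and 0 of the 6 were 1.5-fold or more lower, against 9.44%. Il1b passed that mean only through the YFP+ library, where it was high, so its place in this count depends on the filter. The filter was the same for all genes. The YFP- value rests on 6 cells with an Il1b UMI, and the YFP+ value on 59 cells with up to 10 UMIs each. The shares of cells with an Il1b UMI had intervals that overlap, 0.57% (0.21 to 1.25) in YFP- and 1.46% (1.11 to 1.87) in YFP+ cells. After each cell was thinned to 500 UMIs they were 0.19% (0.02 to 0.69) and 0.47% (0.28 to 0.73). Barcodes of 10 to 100 UMIs, which hold free RNA, had Il1b at 2.20 CPM (2 UMIs, YFP-) and 24.1 CPM (49 UMIs, YFP+). The part of free RNA was not tested. Other members passed 1.5-fold in YFP+ cells under some alternatives, Tnf at a log2 ratio of 0.83 after each cell was thinned to 500 UMIs, Cxcl1 at 1.32 and Cxcl2 at 0.84 without the 5% of cells with the most UMIs, and Cxcl1 at 1.04 with each cell weighted equally.

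Il1a, the other IL-1 cytokine, was at or under the detection limit. It had 0 UMIs in YFP- cells and 2 in YFP+ cells. Il10 had 1 and 6 UMIs, at 0.41 CPM (0.010 to 2.30) and 0.89 CPM (0.33 to 1.94), so that no difference was detectable for either gene at this depth. In barcodes of 10 to 100 UMIs, which hold free RNA and cell debris, Il10 stood at 5.50 CPM (YFP-) and 0.98 CPM (YFP+).

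For Tnf, the cytokine that acts through TNF receptors, the intervals of the libraries overlapped. It was at 23.2 CPM (17.5 to 30.1) in YFP- and 24.2 CPM (20.6 to 28.2) in YFP+ cells, a log2 ratio of 0.06 with an interval from -0.37 to 0.50. The neutrophil-attracting chemokine Cxcl2 was higher in YFP+ cells by less than 1.5-fold. It was at 296.5 CPM (275 to 319) in YFP- and 402 CPM (387 to 418) in YFP+ cells, a log2 ratio of 0.44 (0.32 to 0.56). Of the 717 YFP- UMIs of Cxcl2, 132 came from 1 cell, and these intervals are too narrow for counts so concentrated. Cxcl1, a relative of Cxcl2, was at 7.44 CPM (4.41 to 11.8) and 11.4 CPM (9.01 to 14.3), a log2 ratio of 0.56 (-0.13 to 1.27). Without the 25% of cells highest in AP-1 early genes, an alternative chosen after the data were seen, the log2 ratio was -0.082 for Cxcl2 and -0.62 for Cxcl1. The T cell chemokine Cxcl10 was at 2.48 CPM (0.91 to 5.40) and 3.11 CPM (1.93 to 4.76), with 6 and 21 UMIs.

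The remaining chemokines differed by less than 1.5-fold. Cxcl16 was at 151 CPM (136 to 167) in YFP- and 145 CPM (136 to 155) in YFP+ cells, a log2 ratio of -0.05 (-0.23 to 0.12). Pf4 was at 4677 CPM (4591 to 4764) in YFP- and 3975 CPM (3927 to 4023) in YFP+ cells, so that it was lower in YFP+ cells by a log2 ratio of -0.23 (-0.27 to -0.20). The median log2 ratio over the 10065 genes was -0.02. Platelets also carry Pf4. Of 8 platelet markers Gp9, Gp1bb, Gp1ba and Tubb1 were at 0 in both libraries, and the list summed to 8.68 CPM for YFP- and 9.34 CPM for YFP+ cells. Ppbp, which made up most of that sum, was at 7.03 and 8.15 CPM. The part of platelets in the Pf4 counts was not tested.

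**Figure D1:**
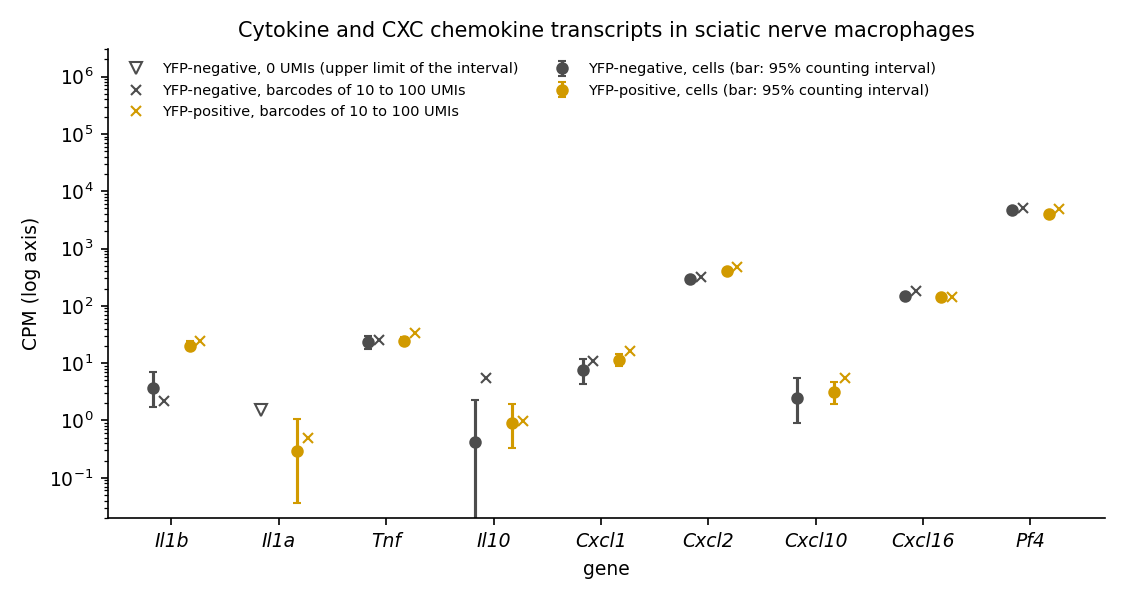
Level of each gene in CPM on a log axis, by library. Circles are cells with 95% counting intervals, the open triangle is the upper limit where no UMI was counted, and crosses are barcodes of 10 to 100 UMIs, shown where they held a UMI. Il1b is the gene whose 2 libraries lie farthest apart, at 3.72 and 20.3 CPM.

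The partners of these genes were measured from lists. Of 10 other CXC ligands 3 had a mean of at least 5 CPM and 2 of these, Cxcl12 (7.86 CPM in YFP-, 19.4 CPM in YFP+) and Cxcl14 (5.79 and 15.6 CPM), were 1.5-fold or more higher in YFP+ cells, against 3.38% of all genes. Cxcl12 and Cxcl14 are known from stromal cells, and the 6 fibroblast markers summed to 23.6 CPM among YFP- and 94.6 CPM among YFP+ cells. The part of those cells in the difference was not tested. Cxcl13, the B cell chemokine, had 1 UMI in YFP- cells and 63 in YFP+ cells (9.34 CPM).

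Of 12 receptors 4 passed 5 CPM, and none of these 4 differed by 1.5-fold, where 3.38% of all genes were higher and 9.44% lower. The TNF receptors Tnfrsf1a (120 and 98.3 CPM in YFP- and YFP+ cells) and Tnfrsf1b (58.3 and 57.2 CPM) and the IL-10 receptor chains Il10ra (60.8 and 55.7 CPM) and Il10rb (220 and 222 CPM) were present. Cxcr2, the receptor of CXCL1 and CXCL2, was at 1.24 and 1.33 CPM, and Cxcr6 had no UMI. The 8 genes of IL-1, TNF and CXCL16 release all passed 5 CPM and none differed by 1.5-fold, against the same 3.38% and 9.44%. Among them the inflammasome sensor Nlrp3 was at 21.9 and 27.3 CPM, its adaptor Pycard at 157 and 167 CPM, the IL-1 beta protease Casp1 at 59.5 and 45.6 CPM, and the sheddases Adam10 (43.0 and 56.5 CPM) and Adam17 (55.8 and 52.5 CPM) were also found. Of 13 other cytokines 4 passed and none of the 4 differed by 1.5-fold (3.38% and 9.44% of all genes), with Tgfb1 at 178 and 143 CPM and Il18 at 24.8 and 25.0 CPM, while Il6 had 0 and 1 UMI. Il1rn, the IL-1 receptor antagonist, was at 1.24 and 1.63 CPM.

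The same genes differed widely in the share of cells with a UMI. Pf4 was found in 94.9% of YFP- cells (93.4 to 96.2) and 90.6% of YFP+ cells (89.7 to 91.5), and Cxcl16 in 25.6% (22.9 to 28.3) and 19.7% (18.5 to 20.9). After each cell was thinned to 500 UMIs, to set aside the depth gap, these shares were 80.5% and 73.8% for Pf4 and 7.18% and 6.32% for Cxcl16. In the Schwann-like cluster, 31 cells with a median of 819 UMIs, Pf4 was found in 19.4% of cells and Cxcl16 in 0 of 31. RNA with the make-up of the barcodes of 10 to 100 UMIs, at the cells' own depth, would have put a Cxcl16 UMI in 32.4% (YFP-) and 20.5% (YFP+) of them and a Pf4 UMI in 99.5% and 98.99%. The shares seen were not above these.

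Cxcl2 was found in few cells at many copies. It was present in 90 YFP- cells, or 8.61% (6.98 to 10.5), and in 394 YFP+ cells, or 9.72% (8.83 to 10.7), and after thinning in 4.11% and 5.80%. Had its UMIs been spread evenly at each cell's depth, 46.8% and 45.7% of cells would have held one. The top 5% of cells held 94.4% of Cxcl2 UMIs in the YFP- and 91.3% in the YFP+ library, against 12.4% and 13.5% of Pf4 UMIs and 29.0% and 31.4% of Cxcl16 UMIs. The highest YFP- cell had 132 Cxcl2 UMIs, 2.89% of all its transcripts, and the highest YFP+ cell had 125. However, Cxcl2 rested on 1 UMI in 53 of these 90 cells (YFP-) and in 179 of these 394 (YFP+).

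The level of Cxcl2 in free RNA was measured as well. Barcodes of 10 to 100 UMIs held it at 315.5 CPM (YFP-) and 473 CPM (YFP+). RNA of that make-up in place of the cells' own would have put a Cxcl2 UMI in 48.8% and 50.7% of cells, more than were seen. The share was 1.49% in the 134 cells of the cluster led by Cd209g and Cd209f, whose median depth was 1324 UMIs, and 6.45%, 2 of 31 cells, in the Schwann-like cluster.

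The spread of each gene over cells was also set beside that of all genes. The squared coefficient of variation in excess of counting noise was 54.4 for Cxcl2 in YFP- cells and 31.3 in YFP+ cells, at percentiles 99.5 and 98.7 of about 10000 genes with at least 5 CPM. Tnf reached 16.3 and 8.85, at percentiles 97.5 and 97.3. In YFP+ cells Il1b reached 72.7 and Cxcl1 155.5. Pf4 was at 0.33 and 0.43 (percentiles 25.6 and 61.7) and Cxcl16 at 0.87 and 0.50 (percentiles 44.6 and 64.8). Both lay below the median over all genes of 1.08 in YFP- and above that of 0.23 in YFP+ cells.

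**Figure D2:**
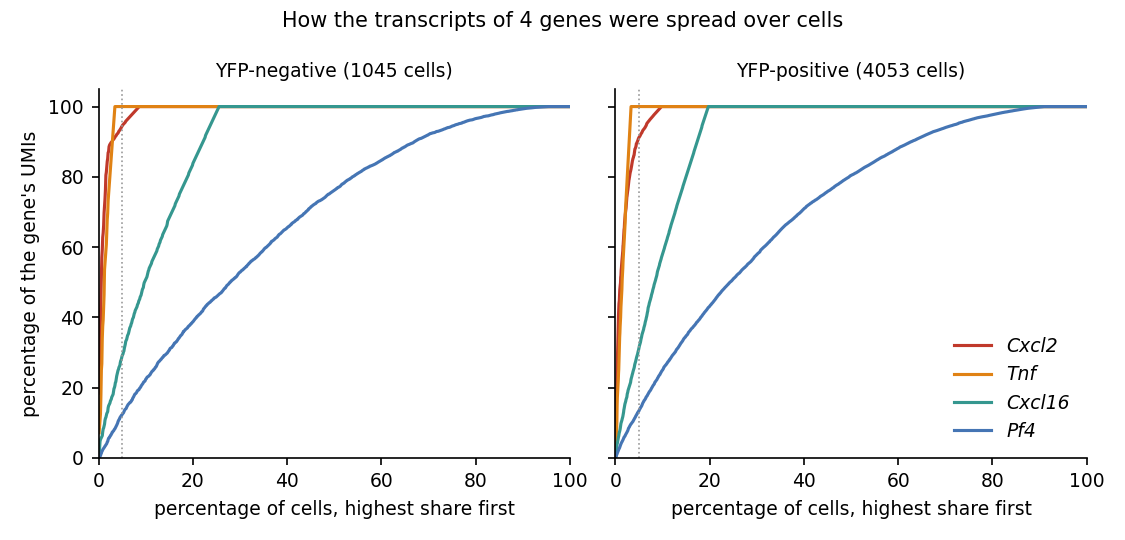
Cumulative percentage of a gene's UMIs (vertical axis) over cells ordered by that gene's share of their UMIs (horizontal axis, percentage of cells), 1 panel a library. The dotted line marks the top 5% of cells, which held 94.4% and 91.3% of Cxcl2 UMIs but 12.4% and 13.5% of Pf4 UMIs.

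Much of the Cxcl2 and Il1b was counted in 2 of the clusters made without the 9 genes. Of 9 clusters, the third (879 cells) was led by the AP-1 and stress genes Fosb, Atf3 and Ppp1r15a, and the sixth (164 cells) by the chemokine Ccl4, the signalling regulator Rgs1 and the chaperone Hspa1a. Together these clusters were 20.5% of all cells and held 81.3% of Cxcl2 UMIs, 79.5% of Il1b UMIs, 55.7% of Tnf UMIs, 51.6% of Cxcl1 UMIs and 37.0% of the 27 Cxcl10 UMIs. They held 21.8% of Cxcl16 UMIs and 17.6% of Pf4 UMIs. These shares are pooled over both libraries and not adjusted for depth, which had medians of 1928 and 2245.5 UMIs in the third and sixth clusters. In YFP- cells alone, the third held 35.7% and the sixth 7.14% of Tnf UMIs, against 44.6% in the cluster led by Ccl12 and Ccl7. For Cxcl1 in YFP- cells these values were 33.3%, 0% and 55.6%, and the 33.3% came from 1 cell. As a level, Cxcl16 was at 121 CPM in the third against 153 CPM in all other cells. In the sixth it was at 207 against 144 CPM.

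Within that pair the genes were not distributed alike. Cxcl2 was at 1396 CPM (1341 to 1452) in the Fosb and Atf3 cluster and 867 CPM (777 to 965) in the Ccl4 and Rgs1 cluster. Il1b had the opposite order, at 25.0 CPM (18.2 to 33.6) and 186 CPM (146 to 235). Tnf had close values in both, at 56.8 and 57.0 CPM. Pf4 was at 3582 CPM in the former and only 1082 CPM (981 to 1191) in the latter, the lowest of the clusters other than the Schwann-like one.

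Cxcl2, Il1b and Tnf were lower in the other 7 clusters. In the largest cluster, led by Ino80b and Hist1h1c, Cxcl2 was at 39.1 CPM and Il1b at 0.88 CPM. The cluster led by the CC chemokines Ccl12 and Ccl7 held Cxcl2 at 172 CPM and Pf4 at 5480 CPM, and the cluster led by S100a6, S100a4 and Ccr2 held them at 108 and 2825 CPM. The cluster led by Cd209g and Cd209f had the highest Pf4, 6933 CPM (6578 to 7302), with 2 Cxcl2 UMIs and no Il1b UMI in 134 cells. Cxcl16 ranged from 102 to 207 CPM over the 8 clusters other than the Schwann-like one, where none was counted.

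Cxcl1 differed from Cxcl2 in its levels by cluster. In the Ccl4 and Rgs1 cluster Cxcl1 was at 12.9 CPM against 10.3 CPM in all other cells, on 5 UMIs in 4 cells. Cxcl2 was at 867 against 353 CPM. The highest level of Cxcl1 was in the mural-like cluster of 89 cells led by Myh11 and Acta2, genes of smooth muscle and pericytes. It was 56.9 CPM there (31.1 to 95.4). The 14 UMIs came from 4 cells, or 4.49%, with up to 7 in 1 cell. Cxcl2 was at 122 CPM there. That cluster was mixed, with mural markers at 2924 CPM, fibroblast markers at 1925 CPM and macrophage markers at 9622 CPM. Pf4 was found in 78.7% of its cells. Which of these cell types held Cxcl1 was not tested. Over the libraries mural markers summed to 9.93 CPM for YFP- and 117 CPM for YFP+ cells. Without the mural-like and Schwann-like clusters the log2 ratio of Cxcl1 between libraries was 0.47.

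The difference in Il1b between libraries was looked for within clusters. In the Ccl4 and Rgs1 cluster Il1b was at 99.4 CPM (32.3 to 232) in 15 YFP- cells and 199 CPM (155 to 253) in 149 YFP+ cells, with intervals that overlap. That cluster made up 1.44% of YFP- and 3.68% of YFP+ cells. In the Fosb and Atf3 cluster Il1b had 1 UMI in 183 YFP- cells and 43 UMIs in 696 YFP+ cells, 2.19 CPM (0.055 to 12.2) against 33.0 CPM (23.9 to 44.5). Without the Ccl4 and Rgs1 cluster, an alternative also chosen after the data were seen, the log2 ratio of Il1b was 2.15. Cxcl2 in the Fosb and Atf3 cluster was at 1089 CPM (995 to 1189) in YFP- and 1504 CPM (1438 to 1572) in YFP+ cells. The YFP- value rests on 498 UMIs in 31 cells, 132 of them in 1 cell, so these intervals are too narrow. The shares of cells with a Cxcl2 UMI there had intervals that overlap, 16.9% (11.8 to 23.2) and 24.6% (21.4 to 27.9).

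**Figure D3:**
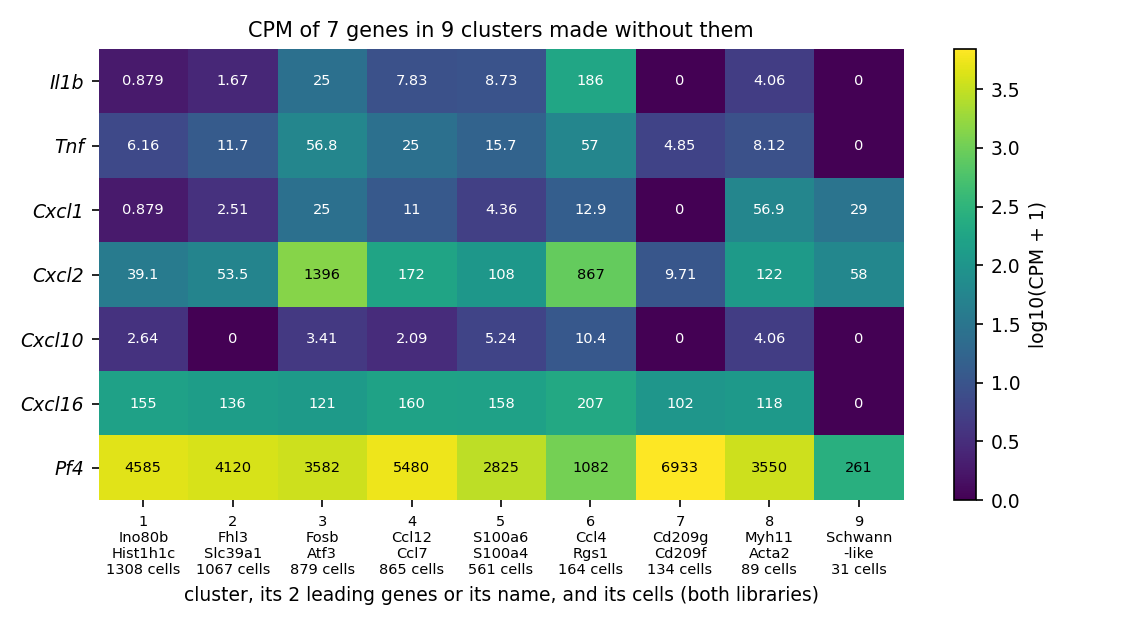
CPM of 7 genes (rows) in 9 clusters (columns, with the 2 leading genes, or the Schwann-like name for the smallest, and the cells of both libraries), coloured by log10(CPM + 1). Cxcl2 is highest in cluster 3 at 1396 CPM and Il1b in cluster 6 at 186 CPM, where Pf4 is at 1082 CPM.

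Cells were then ranked within each library by the share of their UMIs on a gene list, and the top 25% of cells were compared with the bottom 25%. The AP-1 early genes (Fos, Jun, Egr1 and 7 others) and the heat-shock chaperones are known to rise during enzymatic dissociation of tissue as well as after a stimulus in life. The nerves had been digested with enzymes before sorting, so that the timing of induction cannot be told apart here. The study named Fos, Jun and Egr1 for a cluster of these same cells, so the AP-1 list is not independent of these samples.

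Cxcl2 was higher in the cells highest in AP-1 genes in both libraries. In YFP- cells it was at 28.7 CPM in the bottom and 896 CPM in the top 25%, a log2 ratio of 4.92 (4.23 to 5.70), and in YFP+ cells at 28.7 and 1283 CPM, a log2 ratio of 5.43 (5.02 to 5.87). Tnf was at 7.16 and 56.8 CPM in YFP- and at 5.75 and 56.3 CPM in YFP+ cells. In YFP+ cells Il1b was at 1.92 and 53.0 CPM and Cxcl1 at 1.28 and 32.6 CPM. In YFP- cells both had 0 UMIs in the bottom 25%, with 5 UMIs of Il1b and 7 of Cxcl1 in the top. With 3 UMIs put in place of the 0 in the bottom 25%, they would be 1.47-fold and 2.06-fold higher in the top. The intervals of their log2 ratios were -0.25 to 3.15 for Il1b, which takes in 0, and 0.29 to 3.59 for Cxcl1. Il1b, at a mean under 5 CPM there, was left out of the counts. Of the 6 members with a mean of at least 5 CPM over these 2 groups of YFP- cells, 3 (Tnf, Cxcl1 and Cxcl2) were 2-fold or more higher in the top 25%, as were 6.21% of all genes at that level, and 1, Cxcl10 with 5 UMIs in the bottom and 1 in the top, was lower, against 6.95%. In YFP+ cells 4 of 6 (Il1b, Tnf, Cxcl1 and Cxcl2) were higher, against 2.18%, and 0 of 6 lower, against 2.63%. In YFP- cells Cxcl1 reached 5 CPM in the top but not the bottom 25%, and Cxcl10 in the bottom but not the top 25%. In YFP+ cells Il1b and Cxcl1 reached it in the top but not the bottom 25%. Their calls depend on the filter by mean, which was the same for all genes. Cxcl1 in YFP- cells did not rise steadily, at 0, 3.34, 14.4 and 11.0 CPM from the lowest to the highest 25%. After thinning, Cxcl1 in YFP- cells had a log2 ratio of 0. Pf4 and Cxcl16 did not reach 2-fold, with log2 ratios of -0.29 and -0.50 in YFP- and -0.41 and -0.26 in YFP+ cells.

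The list of NF-kB subunits and feedback inhibitors (Nfkbia, Tnfaip3 and 10 others) gave Il1b, Tnf, Cxcl1 and Cxcl2 as 2-fold or more higher in each library, 4 of 7 members in YFP- cells (7.88% of genes) and 4 of 6 in YFP+ cells (2.43%). Lower were 1 of 7 in YFP- cells (7.92%), Cxcl10 with 5 against 1 UMIs, and 0 of 6 in YFP+ cells (2.42%). In YFP- cells Il1b, Tnf and Cxcl1 reached 5 CPM in the top but not the bottom 25%, and Cxcl10 in the bottom but not the top 25%. In YFP+ cells Il1b and Cxcl1 reached it in the top but not the bottom 25%. These calls depend on the filter by mean. Cxcl2 was at 24.3 and 1096 CPM in the bottom and top 25% of YFP- cells and at 66.4 and 1415 CPM in YFP+ cells. In YFP- cells Il1b and Cxcl1 again had 0 UMIs in the bottom 25%, and with 3 UMIs in its place they would be 1.79-fold and 3.57-fold higher in the top. Il1b would then be under 2-fold. The intervals of their log2 ratios were 0.12 to 3.68 and 1.23 to 4.62. Il1b in YFP+ cells was at 0.75 CPM, 1 UMI, in the bottom and 62.8 CPM in the top 25%. The bottom 25% held cells with no UMI on the list, and its median depth was lower, at 1544 against 2259 UMIs in YFP- and 1078 against 1336 UMIs in YFP+ cells. The part of depth was not tested beyond thinning, after which Tnf in YFP- cells, at a log2 ratio of 0.92, was under 2-fold.

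By heat-shock genes 2 of 6 genes, Tnf and Cxcl2, were 2-fold or more higher in the top 25% of YFP- cells (6.93% of all genes) and 4 of 6 in YFP+ cells (2.42%), and none was 2-fold or more lower (8.76% and 2.74%). After thinning, the log2 ratios in YFP- cells were 0.56 for Tnf, -3.11 for Il1b and -4.98 for Cxcl1, so that Tnf was under 2-fold and the others, on few UMIs, were lower. Cxcl2 was at 86.7 and 754.5 CPM in YFP- and at 93.6 and 1159 CPM in YFP+ cells. Il1b in YFP+ cells was at 2.90 and 61.3 CPM, so that it reached 5 CPM in the top but not the bottom 25%. Pf4 was lower in the top 25%, by log2 ratios of -0.51 (-0.59 to -0.43) and -0.61 (-0.66 to -0.56).

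Cells were also ranked by a perivascular macrophage list (Lyve1, Mrc1, Cd163 and 6 others). The top 25% were shallower, with a median of 1313 against 2540.5 UMIs in YFP- and 1176 against 1497 UMIs in YFP+ cells, and the part of depth was tested by thinning alone. Pf4 was higher in the cells with most of it, at 3548 and 5790 CPM in the bottom and top 25% of YFP- cells and at 2437 and 5494 CPM in YFP+ cells, log2 ratios of 0.71 (0.62 to 0.79) and 1.17 (1.12 to 1.23). Cxcl16 was lower, at 241 and 98.4 CPM in YFP- and 196 and 102 CPM in YFP+ cells, log2 ratios of -1.29 (-1.81 to -0.79) and -0.94 (-1.22 to -0.65). Il1b in YFP+ cells was at 52.1 and 2.11 CPM. In YFP- cells 2 of 6 genes (7.29% of all genes) were 2-fold or more lower, Il1b and Cxcl16. Il1b rested on 7 against 0 UMIs, and the interval of its log2 ratio, -3.51 to 0.11, took in 0. With 3 UMIs in place of the 0 it would be 1.48-fold lower, which is under 2-fold. Higher was 1 of 6 (12.4%), Cxcl1 on 4 against 7 UMIs, a log2 ratio of 1.32 with an interval from -0.47 to 3.10. After thinning Cxcl1 had the opposite sign, at -1.46, and Cxcl16 was at -0.26. In YFP+ cells 2 of 6 (4.19%) were lower, Il1b and Cxcl1, and 1 of 6 (4.10%) higher, Pf4, which after thinning was under 2-fold at a log2 ratio of 0.73. Il1b, in both libraries, and Cxcl1, in YFP+ cells, reached 5 CPM in the bottom but not the top 25%, so these calls depend on the filter by mean. Cxcl10, at a mean under 5 CPM, had 14 UMIs in the bottom and 0 in the top 25% of YFP+ cells.

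Another ranking used a monocyte-like list (Ccr2, S100a4, S100a6, Crip1, Ly6c2 and Plac8). The study defined a cluster of these cells by Ccr2, and Ccr2, S100a4 and S100a6 led a cluster here, so the list is not independent of these samples. By this list 2 of the 4 members that passed 5 CPM, Tnf and Cxcl2, were 2-fold or more lower in the top 25% of YFP- cells (7.73% of all genes). In YFP+ cells 1 of 6 was lower (2.14%). In YFP- cells Il1b had 3 and 1 UMIs and Cxcl1 3 and 0. Cxcl2 was the 1 in YFP+ cells, at 574, 459, 424 and 175 CPM from the lowest to the highest 25% of cells. In YFP- cells it did not fall steadily, at 172, 209, 728 and 71.3 CPM. After thinning Tnf in YFP- cells had the opposite sign, at 0.56, and Cxcl2 in YFP+ cells was at -0.98, under 2-fold. None of these members was 2-fold or more higher in either library (6.69% and 3.76%). By MHC class II genes 1 of 4 members was higher and 0 of 4 lower in YFP- cells, against 4.42% and 11% of genes, and 1 of 6 was higher and 1 of 6 lower in YFP+ cells, against 0.975% and 7.41%. Cxcl2 was the higher one in YFP- cells, at 149 and 468 CPM but at a log2 ratio of 0.52 after thinning, and Il1b in YFP+ cells, at 11.4 and 35.4 CPM. Cxcl1 was the lower one in YFP+ cells, with 26 and 12 UMIs, and among cells of at least 1000 UMIs it was at a log2 ratio of -0.81.

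**Figure D4:**
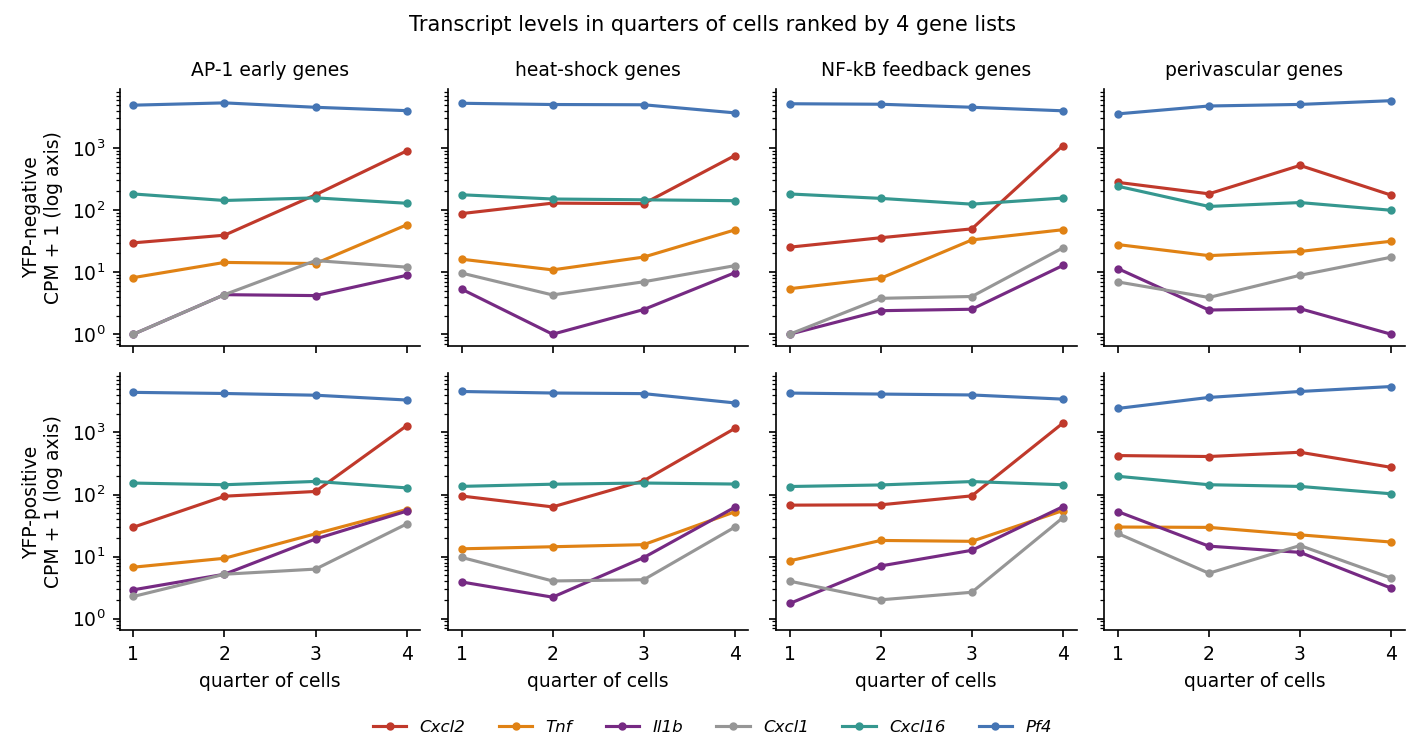
CPM plus 1 (log axis) of 6 genes in 4 equal groups of cells ranked by their share of UMIs on 4 gene lists (columns), from lowest (1) to highest (4), for each library (rows). Cxcl2 is highest in group 4 of the first 3 lists, from 28.7 to 896 and 1283 CPM by AP-1 genes, while Pf4 is highest in group 4 only on the perivascular list.

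Pairs among Il1b, Tnf, Cxcl1 and Cxcl2 were found in the same cells more often than their shares gave. The expected number of cells with both genes of a pair was taken within 10 groups of cells of like depth. Tnf and Cxcl2 were found together in 44 YFP+ cells against 18.7 expected, a ratio of 2.35 (1.71 to 3.16), and in 8 YFP- cells against 4.13, a ratio of 1.94 (0.84 to 3.82). Cxcl1 and Cxcl2 were found together in 16 YFP+ cells, 3.49 times the expected number (1.99 to 5.67), and in 5 YFP- cells, 3.64 times (1.18 to 8.50). Il1b and Cxcl2 met in 25 YFP+ cells, 2.94 times (1.90 to 4.33), and in 4 YFP- cells, 5.64 times (1.54 to 14.4). Il1b and Tnf met in 9 YFP+ cells, 2.69 times (1.23 to 5.11). In YFP- cells the intervals of 3 of the 6 pairs took in 1. After thinning, Tnf and Cxcl2 were found together in no YFP- cell, and at 2.06 times the expected number in YFP+ cells. Only 6 YFP- cells then held Tnf and 43 held Cxcl2, too few for that 0 to show a loss. Cxcl10, with 2 YFP- and 13 YFP+ cells, met Il1b in no cell of either library. It met Cxcl2 in 6 YFP+ cells, 2.66 times (0.98 to 5.79), and in none after thinning, when only 3 YFP+ cells held Cxcl10.

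Cxcl2 and Cxcl16 met in 94 YFP+ cells, 0.96 times the expected number (0.77 to 1.17), and in 37 YFP- cells, 1.37 times (0.97 to 1.89). As a level, Cxcl2 differed in direction between the libraries. It was at 468 CPM in YFP- cells with Cxcl16 against 221 CPM in the others, and at 333 against 426 CPM in YFP+ cells. Il1b and Cxcl16 met in 25 YFP+ cells, 1.52 times (0.98 to 2.24), and in 4 YFP- cells, 2.07 times (0.57 to 5.31). All 4 of these intervals take in 1. The level of Pf4 was lower in cells with Il1b, at 659 CPM in 6 YFP- cells against 4713 CPM in the others, and at 2258 CPM in 59 YFP+ cells against 4015 CPM, a log2 ratio of -0.83 (-0.99 to -0.68). Cxcl2 was at 2297 CPM in those 59 cells and 358 CPM in the others.

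Most cells had no UMI of these genes at depths of 2233 and 1484 UMIs in the median. None of the 5 inducible genes Il1b, Tnf, Cxcl1, Cxcl2 and Cxcl10 was counted in 88.0% of YFP- and 86.8% of YFP+ cells. At least 2 of the 5 were counted in 13 YFP- cells, or 1.24% (0.66 to 2.12), and in 80 YFP+ cells, or 1.97% (1.57 to 2.45). No cell had all 5.

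**Figure D5:**
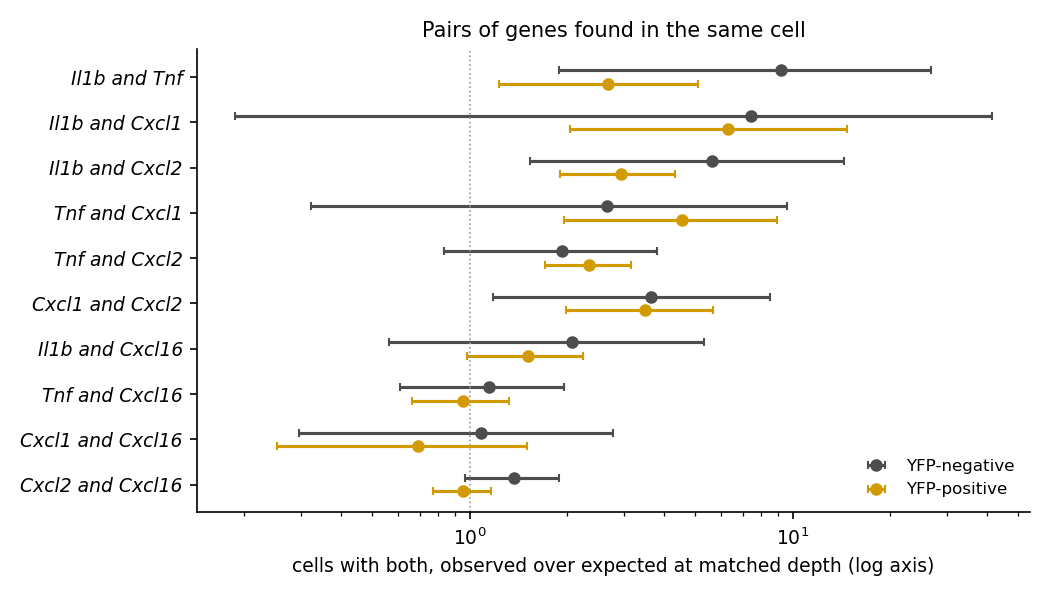
Observed over expected number of cells with both genes of a pair (log axis), with 95% counting intervals, by library. The 6 pairs among Il1b, Tnf, Cxcl1 and Cxcl2 lie between 1.94 and 9.19, and their 4 pairs with Cxcl16 between 0.69 and 2.07.

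The genes most like each member across cells were then ranked. Likeness was the lower of the 2 libraries' Pearson correlations of log counts per 10000 UMIs over 1045 and 4053 cells, among 5528 genes, and is a description, since all genes of a cell share its depth. For Cxcl2 the highest values were for the chaperone Hspa1a (r = 0.31 in YFP- and 0.30 in YFP+ cells), the AP-1 family gene Atf3 (0.29 and 0.31) and the NF-kB inhibitor Nfkbia (0.28 and 0.31), followed by Junb and Hspa1b. Il1b was most like the CC chemokines Ccl4 (0.28 and 0.18) and Ccl3 (0.22 and 0.17), then Cxcl2, Icam1 and Bcl2a1d. Cxcl1 was most like Cxcl2 (0.26 and 0.17), and Tnf was most like Hspa1a (0.16 and 0.15), Ccl2, Egr2, Cxcl2 and Junb.

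Pf4 was most like the selenoprotein gene Selenop (0.29 and 0.28), the complement gene C1qc (0.33 and 0.27) and Fcer1g (0.34 and 0.26), with the mannose receptor Mrc1 and Apoe next. Cxcl16 had low values throughout, led by the fractalkine receptor Cx3cr1 (0.11 and 0.10), then Tgfbr1 and the cathepsin gene Ctss. Values for Cxcl10 stayed at or under 0.10 and Il1a and Il10 were too sparse to rank.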

How the data were processed

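The authors deposited raw UMI counts per gene and barcode for 2 libraries (10x Genomics 3′ v2 chemistry, 1 per condition). The study's methods name cellranger v2.1.1, whereas the submitters' processing notes name Cell Ranger 3.0.2 with Seurat 2.2.0, and both give GRCm38. The annotation release is not given in the sources used here, but 99.9% of 54838 gene identifiers were in GENCODE M21. Strand and multi-mapping settings were not stated.

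Barcodes with at least 500 UMIs and 200 genes were kept as cells, holding 66.2% of YFP- and 72.0% of YFP+ library UMIs. The study's own filter was set on mapped reads, which UMI counts do not hold. No doublet caller was run, and leaving out the 5% of cells with the most UMIs stands in for one. Counts were summed per library, cluster or 25% of cells. Log2 ratios added 1 CPM, with a binomial interval given the total of both counts. Barcodes of 10 to 100 UMIs gave the free RNA. With 1 library per condition, no p-values were computed, and genes past 1.5-fold (libraries) or 2-fold (25% groups) were counted. Clustering used 2000 variable genes without the 9 genes, 20 components, 20 neighbours and Leiden resolution 0.8 (scanpy 1.11.5, leidenalg 0.10.2). Groups ranked by the interferon list were not used, because 865 of 1045 YFP- and 3523 of 4053 YFP+ cells had no UMI on that list. Scripts were tested on simulated data. The genes, lists and tests were chosen with earlier results of these data known. Named genes are the 9 members, genes of the lists, the 5 genes most like each member and the leading genes of clusters, except for the smallest cluster, where they are not reported here.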

Additional observations from a re-analysis of the deposited data

Results flagged for a closer look

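Cxcl2 moved in opposite directions with the MHC class II list in the 2 libraries. It was higher in the top than in the bottom 25% of YFP- cells, with a log2 ratio of 1.65 (1.30 to 2.003), and lower in YFP+ cells, with a log2 ratio of -0.46 (-0.64 to -0.29). The difference between libraries was not tested, since each is 1 sample. After each cell was thinned to 500 UMIs the values were 0.52 and 0.09, both above 0.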

How the results depend on the processing

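Each condition is 1 library, and counting intervals do not cover the spread between cells, mice or captures. No paired analysis was possible because each condition is 1 library with no test. Il1b stayed 1.5-fold or more higher in YFP+ cells under all 11 alternatives, with log2 ratios from 1.52 to 2.52. Of 183 recomputed main values, 148 stayed within their interval or count range and 35 did not. The other recomputed values, out of 349 in all, were log2 ratios by gene list and those between libraries on fewer than 3 UMIs. Of these 112 stayed within their interval, 52 did not, and 2 that had passed 2-fold changed sign. The causes were not tested.

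Between libraries (log2 ratio), thinning to 500 UMIs gave 0.83 for Tnf and 1.79 for Cxcl10. Thinning left Tnf in 6 YFP- and 42 YFP+ cells. Cxcl10 was left in 0 YFP- and 3 YFP+ cells, so the size of its ratio depends on the 1 CPM added. Without the 5% of cells with the most UMIs the values were 1.32 for Cxcl1 and 0.84 for Cxcl2. Without the top 25% of cells on the AP-1 list they were -0.62 and -0.082. The difference in the percentage of cells with a UMI, YFP+ minus YFP-, was 0.88 for Il1b and -5.86 for Cxcl16 without thinning, and 0.96 for Il1b and 3.82 for Cxcl2 at 1000 UMIs. The top 5% of cells held 92.2% of YFP- Cxcl2 UMIs without the cells with the most UMIs, 88.2% in YFP+ cells of at least 1000 UMIs, and for Pf4 in YFP+ cells 14.4% and 14.1%.

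Of the 6 members with at least 5 CPM over the libraries, whatever their level in the groups compared, the number 2-fold or more higher after thinning was 1 by heat-shock genes and 0 by MHC class II in YFP- cells and 0 by the perivascular list in YFP+ cells. The number lower was 2 by heat-shock and 2 by MHC class II genes in YFP- cells after thinning, and 3 by MHC class II at 1000 UMIs. In YFP+ cells it was 0 by MHC class II at 1000 UMIs, and 2 at 1000 UMIs and 0 after thinning by the monocyte-like list. The share over all genes was not computed for these settings, so these counts say nothing particular to the members. Some rest on very few UMIs. After thinning, Il1b was found in 2 and Cxcl1 in 3 YFP- cells. Among ratios that had passed 2-fold, thinning turned the sign in YFP- cells for Tnf on the monocyte-like list (0.56) and for Cxcl1 on the perivascular list (-1.46). Smaller ratios changed sign too, among them those of Il1b and Cxcl1 on the heat-shock list in YFP- cells.

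The highest cluster CPM at resolution 0.4 was 31.3 for Il1b, 781 for Cxcl2, 155 for Cxcl16 and 5688 for Pf4, and at resolution 1.2 it was 90.9 for Tnf and 2482 for Cxcl2. Observed over expected cells after thinning were 4.45 for Il1b with Cxcl2, 17.6 for Tnf with Cxcl1, 8.55 for Cxcl1 with Cxcl2 and 0 for Cxcl2 with Cxcl10 in YFP+ cells, and 0 for Tnf with Cxcl2 and 13.1 for Cxcl1 with Cxcl2 in YFP- cells. These values rest on few cells. Thinning left Cxcl1 in 14 and Cxcl10 in 3 YFP+ cells, and Tnf in 6 and Cxcl1 in 3 YFP- cells. A 0 at such counts does not show a loss of co-detection.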
